A study of Mus musculus with 12 samples.

Results

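The S100 proteins are a family of small calcium-binding proteins, and the 10 S100 genes described here were S100a1, S100a4, S100a5, S100a6, S100a8, S100a9, S100a10, S100a11, S100a13 and S100a16 of the mouse. They were taken by exact gene symbol from the deposited expression values, and they are 10 of 18 S100 genes listed among 21936 genes. They were chosen by their expression values in these same knockout and wild-type libraries, so their values, fold changes and calls below are a description and no p is given. The point of interest within the group was S100a5, nearly absent from wild-type muscle, set beside the relatives that lie next to it in the genome.

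The samples were skeletal muscle of C57BL/6N mice aged 3 months. PTRF knockout mice, given the disease state muscular dystrophy in the labels, were set against wild-type mice, given as normal. PTRF is the caveolar coat protein cavin 1, encoded by Cavin1. Polyadenylated RNA was measured by sequencing after TRIzol extraction. The labels name 2 muscles, soleus and quadriceps, with 3 samples of each genotype in each, but every quadriceps sample held the same values as the soleus sample of the same genotype and number over 21936 genes, with a largest difference of 0. The values were therefore used once, as 3 knockout and 3 wild-type libraries under the soleus label, and the muscle they came from cannot be told. The labels do not say how the gene was deleted or that the samples came from separate animals, so errors and p-values measure the spread between these samples.

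Each library summed to between 848224 and 872482 TPM (transcript shares scaled by length) in the knockout and between 843194 and 849159 TPM in the wild type. TPM keeps no read depth, so how deeply each library was sequenced cannot be told. Mitochondrial genes held 39.0% to 45.7% of the knockout libraries and 43.0% to 52.3% of the wild-type libraries. Cavin1 was at 0.284, 0.0905 and 0.0254 TPM in knockout muscle, against 45.2, 40.0 and 42.2 TPM in wild-type muscle, so the targeted gene followed the labels in every library. The slow myosin gene Myh7 was at 2196 to 3291 TPM in knockout and 1702 to 2703 TPM in wild-type libraries. The fast myosin gene Myh4 was at 238 to 580 TPM in knockout libraries and at 6.43, 194 and 4.21 TPM in the wild-type libraries, which thus differed among themselves in fibre type genes.

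S100 proteins are built from paired EF-hand motifs, loops that hold calcium, and most work as dimers. Calcium binding usually opens a surface that grips a target protein, so that the family passes calcium signals to the cytoskeleton, to annexins at membranes and to channels of the muscle fibre. Several members are also released from cells and then act on surface receptors such as RAGE and TLR4. In skeletal muscle S100a1 is the classical fibre member, while others are better known from connective tissue cells and white blood cells. S100a10 stands apart in having lost calcium binding and stays bound to annexin A2.

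All 10 members lie on chromosome 3 (GRCm38, GENCODE M21 annotation, all protein coding). S100a5 (ENSMUSG00000001023) occupies chr3:90608523-90611780 on the plus strand, 2477 bases after S100a4 (ENSMUSG00000001020, chr3:90603771-90606045) and 1101 bases before S100a6 (ENSMUSG00000001025, chr3:90612882-90624181), both also on the plus strand. S100a1 (ENSMUSG00000044080, chr3:90511034-90514392) is read from the minus strand at the other end of the cluster. RefSeq promoter windows of GRCm38.p6, running from 250 bases before the start to the first 50 bases of the transcript, matched 9 of the 10 members. The windows of the 3 adjacent genes and of S100a1 are given 5′ to 3′ on the strand of the gene, because S100a5 is set beside its 2 neighbours here and S100a1 was the member that was not called. They span chr3:90608272-90608571 for S100a5, chr3:90603520-90603819 for S100a4, chr3:90612644-90612943 for S100a6 and chr3:90514281-90514580 for S100a1. Capitals mark matches to a TATA box (TATAAA) or an E-box (CANNTG), each searched on both strands.
S100a5: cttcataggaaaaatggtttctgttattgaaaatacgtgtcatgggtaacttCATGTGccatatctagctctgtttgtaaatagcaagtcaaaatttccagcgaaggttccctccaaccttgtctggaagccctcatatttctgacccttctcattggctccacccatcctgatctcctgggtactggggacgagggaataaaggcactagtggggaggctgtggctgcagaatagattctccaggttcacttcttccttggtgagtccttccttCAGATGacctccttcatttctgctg
S100a4: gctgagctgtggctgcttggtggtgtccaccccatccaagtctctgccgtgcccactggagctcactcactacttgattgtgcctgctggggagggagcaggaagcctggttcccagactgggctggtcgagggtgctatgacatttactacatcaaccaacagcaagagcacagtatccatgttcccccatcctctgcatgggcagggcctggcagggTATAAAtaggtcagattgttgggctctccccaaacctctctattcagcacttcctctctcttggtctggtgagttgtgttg
S100a6: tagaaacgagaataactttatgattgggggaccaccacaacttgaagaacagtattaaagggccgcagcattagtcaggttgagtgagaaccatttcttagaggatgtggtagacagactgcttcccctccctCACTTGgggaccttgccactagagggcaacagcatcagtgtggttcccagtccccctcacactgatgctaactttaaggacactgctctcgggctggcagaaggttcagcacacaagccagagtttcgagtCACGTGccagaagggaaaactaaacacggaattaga
S100a1: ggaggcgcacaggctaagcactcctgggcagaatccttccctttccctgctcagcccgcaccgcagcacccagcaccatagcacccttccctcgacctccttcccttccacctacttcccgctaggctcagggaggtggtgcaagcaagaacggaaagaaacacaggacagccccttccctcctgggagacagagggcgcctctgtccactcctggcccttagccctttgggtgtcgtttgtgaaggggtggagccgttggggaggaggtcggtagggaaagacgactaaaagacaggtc

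The S100a4 window held 1 TATAAA, found in 13.6% of all 32851 promoter windows, at a place 31 bases before the start. The S100a5 window held 2 E-box matches and the S100a6 window 2, while 72.3% of all windows held at least 1. An AP-1 site (TGANTCA, in 7.81% of all windows), also searched on both strands, was not among the letters of these 4 windows. Among the other members TATAAA occurred in the windows of S100a8 and S100a9 and TGANTCA in those of S100a11 and S100a16. A match describes letters only, and binding was not measured.

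The S100 pool was led by S100a6 in the knockout and by the fibre gene S100a1 in the wild type. Together the 10 genes summed to 1214, 1091 and 1249 TPM in knockout muscle, against 491, 402 and 539 TPM in wild-type muscle. The means were 1185 ± 83.3 TPM in the knockout and 477 ± 69.7 TPM in the wild type (SD, n = 3 each), or 0.137% ± 0.00765 and 0.0563% ± 0.00803 of all TPM in a library. Without S100a1 the sum was 929.9, 811 and 988 TPM in knockout libraries and 186, 177 and 229.8 TPM in wild-type libraries. S100a1 made up 23.3% ± 2.37 of the pool in the knockout and 58.4% ± 3.24 in the wild type, whereas S100a6 made up 35.7% ± 2.74 and 14.7% ± 1.95. S100a4 had 8.15% of the knockout pool and 2.76% of the wild-type pool, and S100a10 had 12.5% and 7.09%. The shares of S100a13, at 3.16% in the knockout and 3.07% in the wild type, lay close together.

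**Figure D1:**
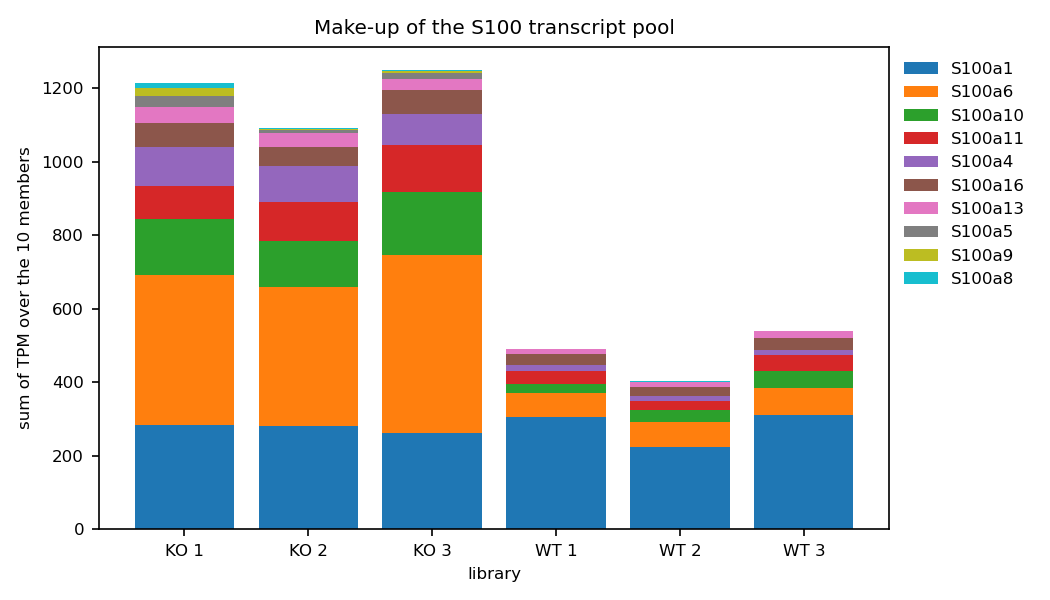
Summed level of the 10 S100 genes in TPM, 1 stacked bar per library, knockout libraries left of wild-type libraries, with each member in its own colour. The knockout bars reach 1091 to 1249 TPM and the wild-type bars 402 to 539 TPM, while the S100a1 segment stays between 224 and 309 TPM in all 6.

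Of the 10 members, 9 had every knockout value above every wild-type value, a separation seen in 48.7% of the 11056 genes tested, and none had every value below, as 4.83% of tested genes did. The same 9 passed the threshold for higher expression in the knockout (limma, Benjamini-Hochberg adjusted p under 0.05), and none passed for lower. Of all tested genes 36.3% passed as higher and 2.92% as lower, 39.2% in either direction. Since the members were chosen with this contrast known, nothing is read from the count. The median log2 fold change was 2.06 over the members and 0.33 over all tested genes, on the log2(TPM + 1) scale used for every fold change below, knockout over wild type. S100a5 and S100a8 stayed below 1 TPM throughout the wild type and entered the test through the knockout libraries alone. After trimmed-mean rescaling, which brings the median of all tested genes to 0.02, the 9 members still passed as higher, where 15.9% of all genes did and 11.8% passed as lower.

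S100a1 modulates the ryanodine receptor and the SERCA calcium pump in striated muscle. It was at 284, 279.8 and 261 TPM in the knockout, against 305, 224 and 309 TPM in the wild type. The groups overlapped, and the wild-type libraries alone spanned the whole range of the knockout. Mean levels were 275 ± 12.3 TPM in the knockout and 279 ± 47.7 TPM in the wild type, with a log2 fold change of -0.01 (SE 0.16) that lay below the median of all tested genes. It was the only member that was not called, and after trimmed-mean rescaling its log2 fold change was -0.37, also not called. By rank it stood 286th among all listed genes in the knockout and 254th in the wild type.

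S100a6, or calcyclin, is a member of growing and connective tissue cells that binds annexins and the calcyclin-binding protein. It was measured at 408, 379 and 485 TPM in knockout libraries, against 64.4, 67.7 and 75.6 TPM in wild-type libraries. No values overlapped, and the spread within each group was small beside the gap. The mean was 424 ± 54.6 TPM in the knockout and 69.2 ± 5.78 TPM in the wild type, 6.12-fold higher, with a log2 fold change of 2.59 (SE 0.15). Its rank was 184 in the knockout, above S100a1, and 841 in the wild type.

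S100a4, also called metastasin or fibroblast-specific protein 1, binds nonmuscle myosin II and is used as a marker of fibroblasts and some macrophages. Knockout libraries held 106, 96.4 and 86.1 TPM, against 14.7, 12 and 12.3 TPM in wild-type libraries. Its groups were as well separated as those of S100a6. The mean of 96.1 ± 9.86 TPM in the knockout was 7.38-fold that of the wild type, at 13 ± 1.49 TPM, and the log2 fold change was 2.79 (SE 0.15). Of its 584 exon bases, 302 (51.7%) are shared with the protein-coding gene Gm42674 on the same strand, to which reads of S100a4 could be assigned. Gm42674 was at 0.328, 0 and 0 TPM in the knockout and at 0 in the 3 wild-type libraries.

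S100a5 is known in mice mainly from olfactory sensory neurons and has few described targets. It was at 30.9, 9.60 and 16.4 TPM in knockout muscle, against 0, 0 and 0.254 TPM in wild-type muscle. The lowest knockout library thus lay far above the highest wild-type library, but the knockout libraries differed more among themselves than for either neighbour. The knockout mean was 19.0 ± 10.9 TPM, a coefficient of variation of 57.5%. No fold on the linear scale is given against a group listed at 0 in 2 of 3 libraries. The log2 fold change of 4.07 (SE 0.31) was the highest in the family at a pseudocount of 1. Its size depends on the pseudocount, being 6.81 with 0.1 and 2.14 with 5, and with 5 it was below those of S100a6 (2.53) and S100a4 (2.49). In rank S100a5 stood 3258th of all listed genes in the knockout and 13969th in the wild type.

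The 3 adjacent genes therefore shared a direction but not a profile. S100a5 was in the knockout 0.292, 0.0996 and 0.190 times as abundant as S100a4, and 0.0759, 0.0253 and 0.0338 times as abundant as S100a6. S100a4 stood at 0.260, 0.254 and 0.178 times S100a6 in the knockout and at 0.229, 0.178 and 0.162 times in the wild type, ranges that overlap. Knockout library 1 was highest for S100a5 and S100a4 while knockout library 3 was highest for S100a6. S100a5 shares no exon base and no 31-base stretch with any other annotated gene. Whether reads from transcripts of its neighbours were counted to it was not tested.

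The 5 genes whose values ran most like S100a5 across the 6 libraries, by Pearson correlation of log2(TPM + 1), were 2900026A02Rik, Mustn1, Iigp1, Casz1 and Ormdl2, with r between 0.998 and 1.000. This is a description over libraries that share the genotype difference, and 29.9% of the other 11055 tested genes had r over 0.9. Mustn1, a musculoskeletal nuclear protein gene, was at 401, 176 and 259 TPM in the knockout and 36.9, 37.5 and 41.1 TPM in the wild type. Iigp1, an interferon-inducible GTPase gene, was at 49.8, 23.0 and 33.9 TPM in the knockout and 5.40, 5.10 and 5.64 TPM in the wild type. All 5 genes had the order of S100a5 in the knockout, with library 1 highest and library 2 lowest. They were picked for likeness to S100a5 over these same libraries, so nothing is read from the shared order.

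**Figure D2:**
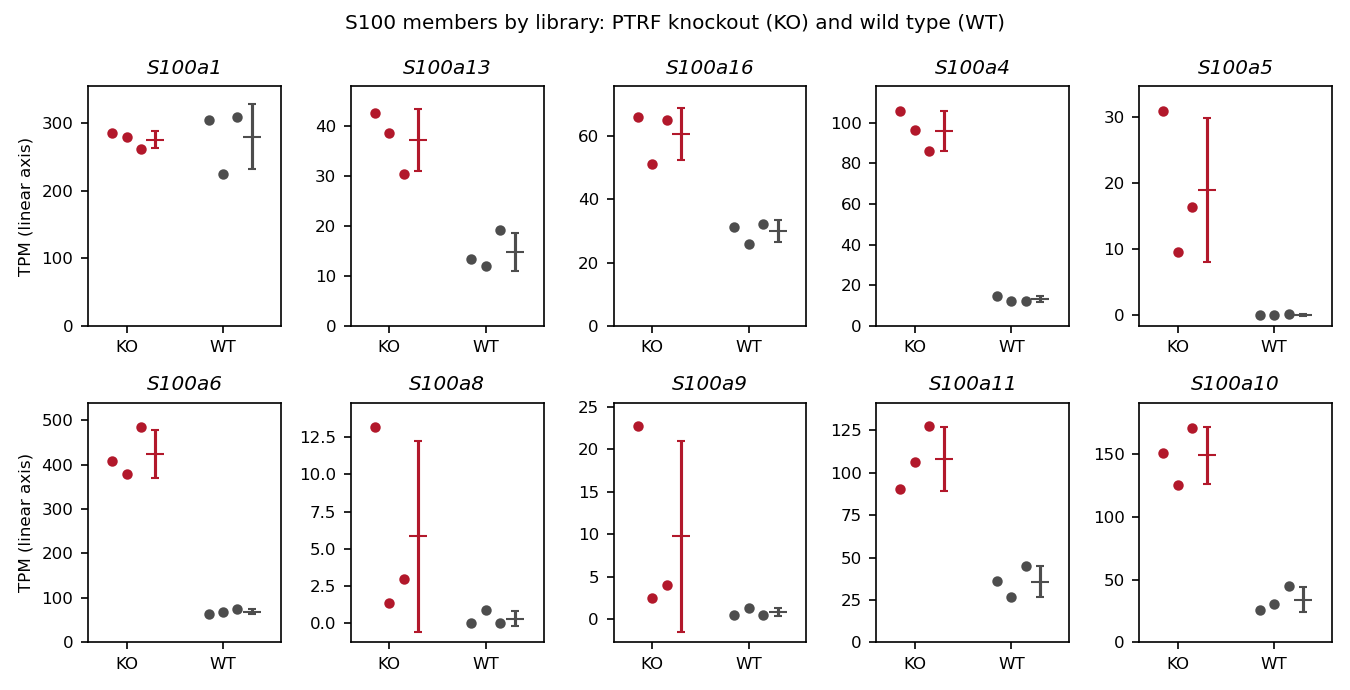
Level of each of the 10 S100 genes in TPM, 1 panel per gene with its own axis, points for the 3 knockout libraries left of the 3 wild-type libraries and bars for mean ± SD. Knockout and wild-type points overlap for S100a1 alone, and S100a5, S100a8 and S100a9 show the widest knockout spread relative to their means.

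S100a10, or p11, binds annexin A2 and brings the complex to the plasma membrane, where it holds plasminogen and its activator. It was at 151, 126 and 171 TPM in the knockout, against 25.8, 30.8 and 45.0 TPM in the wild type. All knockout values exceeded all wild-type values. The means were 149 ± 22.7 TPM in the knockout and 33.9 ± 9.92 TPM in the wild type, 4.40-fold higher, with a log2 fold change of 2.13 (SE 0.20). S100a11, or calgizzarin, pairs with annexin A1 and takes part in plasma membrane repair. Its values were 90.4, 106 and 128 TPM in the knockout, against 36.1, 26.6 and 44.8 TPM in the wild type, again without overlap. Its mean was 108 ± 18.6 TPM in the knockout and 35.8 ± 9.11 TPM in the wild type, 3.02-fold higher, and its log2 fold change was 1.58 (SE 0.20). Of the 31-base stretches of S100a11 transcripts, 48.9% also occur in other annotated genes, among them the pseudogene Gm12854, so its reads could be split in counting.

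The annexin genes Anxa2 and Anxa1 are not members, but their list was also chosen with earlier results of these data known. Anxa2 rose to 99.95, 89.1 and 125 TPM in the knockout, against 23.5, 20.7 and 29.1 TPM in the wild type (log2 fold change 2.05, limma adjusted p = 1.01e-05). Anxa1 rose to 40.2, 37.6 and 37.2 TPM in the knockout, against 9.84, 9.19 and 11.8 TPM in the wild type (log2 fold change 1.81, limma adjusted p = 6.66e-06). The amount of S100a10 per Anxa2 was 1.51, 1.41 and 1.37 in knockout libraries and 1.10, 1.48 and 1.54 in wild-type libraries, so the ratio overlapped while both levels were higher. S100a11 per Anxa1 was 2.25, 2.83 and 3.43 in the knockout and 3.67, 2.89 and 3.80 in the wild type, also overlapping. S100a6 per Cacybp, the gene of its binding protein, was instead 12.1, 14.8 and 19.2 in the knockout and 2.81, 3.45 and 2.74 in the wild type. Cacybp itself was at 28.2 ± 4.84 TPM in the knockout and 23.4 ± 4.02 TPM in the wild type and was not called (log2 fold change 0.26, limma adjusted p = 0.234).

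**Figure D3:**
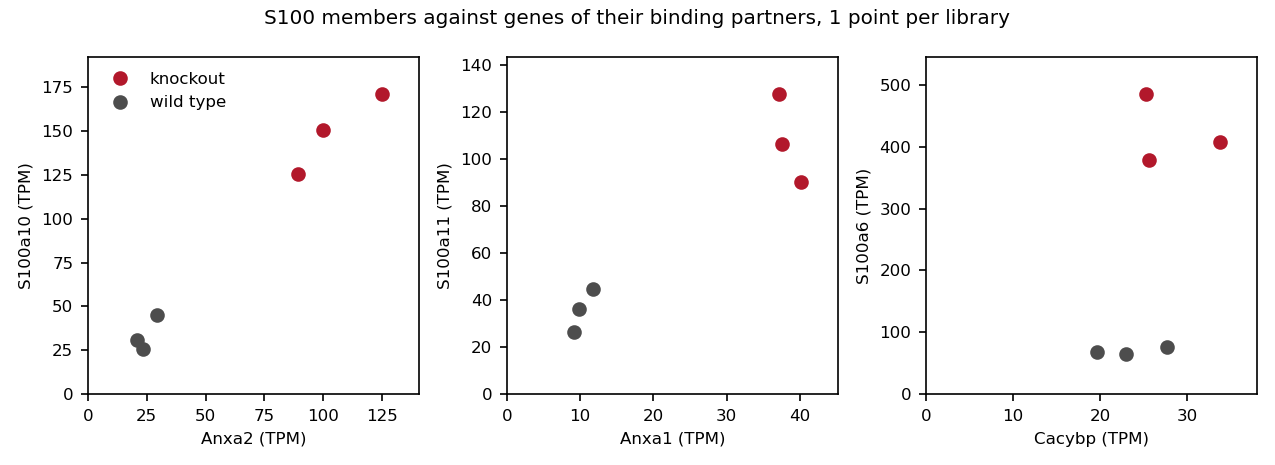
Level in TPM of S100a10 against Anxa2, S100a11 against Anxa1 and S100a6 against Cacybp, 1 point per library, knockout in red and wild type in grey. Knockout points lie apart from wild-type points on both axes in the Anxa2 and Anxa1 panels, but only on the S100a6 axis in the Cacybp panel.

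Over the whole list of annexins and membrane scaffold partners, 8 of 10 genes were called higher and 0 lower, with a median log2 fold change of 1.07 beside 0.33 for all tested genes. After trimmed-mean rescaling 6 were called higher. Of all tested genes 36.3% were called higher and 2.92% lower, and 15.9% and 11.8% after rescaling. Ahnak, a giant scaffold bound by S100a10 with annexin A2, was at 61.8, 45.0 and 63.2 TPM in the knockout and 14.6, 14.4 and 18.4 TPM in the wild type (log2 fold change 1.77, limma adjusted p = 2.32e-05). Anxa5 averaged 68.3 ± 6.16 TPM in the knockout and 27.1 ± 4.90 TPM in the wild type (log2 fold change 1.31, limma adjusted p = 0.000116). Dysf, encoding dysferlin of the membrane repair machinery, averaged 24.5 ± 2.03 TPM in the knockout and 19.8 ± 5.16 TPM in the wild type and was not called (log2 fold change 0.32, limma adjusted p = 0.184).

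Of the plasminogen system at the S100a10 site, 6 genes were listed, 5 tested, 4 called higher and 0 lower, under both the deposited and the rescaled values. Among all tested genes 36.3% were higher and 2.92% lower under the deposited values, and 15.9% and 11.8% under the rescaled ones. Plaur, the urokinase receptor, was at 5.15, 4.96 and 6.95 TPM in the knockout, against 0.513, 0.500 and 0.727 TPM in the wild type (log2 fold change 2.07, limma adjusted p = 4.28e-06). It was tested through the knockout libraries alone. The activators Plau and Plat had log2 fold changes of 0.79 (limma adjusted p = 0.00121) and 0.80 (limma adjusted p = 0.0015).

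S100a13 takes part in the export of FGF1 and interleukin 1 alpha, which lack a secretion signal. Knockout libraries held 42.5, 38.5 and 30.4 TPM, against 13.3, 11.9 and 19.1 TPM in wild-type libraries. The groups did not overlap, and the gap between the lowest knockout and the highest wild-type value was narrower than for S100a4 or S100a6. Mean levels were 37.2 ± 6.16 TPM in the knockout and 14.8 ± 3.81 TPM in the wild type, 2.52-fold higher (log2 fold change 1.29, SE 0.19). Only 42 bases separate S100a13 from S100a1, and their promoter windows share 204 bases on opposite strands. S100a13 per S100a1 was 0.150, 0.138 and 0.117 in the knockout and 0.0435, 0.0532 and 0.0618 in the wild type, with every knockout ratio above every wild-type ratio. Of its 4 listed cargo genes and partners 2 were tested. Fgf1 fell to 33.5, 23.8 and 21.7 TPM in the knockout, against 40.9, 43.0 and 45.3 TPM in the wild type (log2 fold change -0.71, limma adjusted p = 0.00769), and Sphk1 rose by 0.97 on the log2 scale (limma adjusted p = 0.00795), a call that rescaling removed (limma adjusted p = 0.0615).

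S100a16 is a widely expressed member, here with the smallest called fold change. It was at 65.8, 51.2 and 64.9 TPM in the knockout, against 31.3, 25.9 and 32.3 TPM in the wild type. No library crossed between the groups. Means were 60.6 ± 8.19 TPM in the knockout and 29.8 ± 3.44 TPM in the wild type, 2.03-fold higher, with a log2 fold change of 1.00 (SE 0.16).

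S100a8 and S100a9 form calprotectin, an abundant protein of neutrophils and monocytes that is released at sites of inflammation. S100a8 was at 13.2, 1.33 and 2.94 TPM in the knockout, against 0, 0.868 and 0 TPM in the wild type. S100a9 was at 22.7, 2.48 and 4.02 TPM in the knockout, against 0.544, 1.34 and 0.535 TPM in the wild type. For both genes knockout library 1 stood far above the other 2 knockout libraries, and knockout library 2 was the closest to the highest wild-type library. The log2 fold changes were 2.04 (SE 0.50) for S100a8 and 2.08 (SE 0.53) for S100a9, and without knockout library 1 they were 1.30 and 1.24. S100a9 per S100a8 was 1.72, 1.86 and 1.37 in the knockout libraries and 1.54 in wild-type library 2, the 1 in which both were above 0. Both calls were lost after quantile normalization and without the filter on low values.

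The sum of the 12 neutrophil markers had the same order across the knockout libraries as this pair, though single markers such as Mmp9 did not. The markers summed to 17.4, 2.15 and 8.21 TPM in the knockout and 1.34, 2.15 and 2.16 TPM in the wild type. Most of the sum in knockout libraries 1 and 3 came from Lcn2 and Retnlg. Lcn2 was the 1 of the 12 that could be tested, at 11.3, 1.41 and 5.68 TPM in the knockout and 1.04, 1.36 and 1.72 TPM in the wild type (log2 fold change 1.31, limma adjusted p = 0.0319). That call was lost after rescaling (limma adjusted p = 0.116) and without knockout library 1 or 3 or any 1 of the wild-type libraries. Retnlg was at 4.32, 0 and 1.16 TPM in the knockout and 0, 0.236 and 0 TPM in the wild type, Ly6g was at or below 0.143 TPM in all 6 libraries and Elane was at 0 in all. In bulk muscle a change in the number of cells of a type and a change in RNA per cell cannot be told apart, and the part of neutrophils in the values of S100a8 and S100a9 was not tested.

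The NADPH oxidase, which uses S100a8 and S100a9 in phagocytes, had 5 of 6 genes called higher and 0 lower, and 4 after rescaling, and the median of the list was 0.89 on the log2 scale. All tested genes together were called higher in 36.3% and lower in 2.92%, and in 15.9% and 11.8% after rescaling. Of the oxidase genes, Rac2, Ncf1 and Cybb were among those tested through the knockout libraries alone. Rac2, the small GTPase of the oxidase, was at 5.36, 2.94 and 2.82 TPM in the knockout and 0.264, 0.0971 and 0.215 TPM in the wild type (log2 fold change 1.94, limma adjusted p = 2.32e-05). Cyba, the smaller membrane subunit, averaged 13.3 ± 2.04 TPM in the knockout and 5.47 ± 0.482 TPM in the wild type (log2 fold change 1.13, limma adjusted p = 0.000202). Ncf1 and Cybb changed by 0.96 (limma adjusted p = 0.000167) and 0.82 (limma adjusted p = 0.00118). Unlike S100a8 and S100a9, Ncf1 was nearly level across the knockout libraries, at 1.69, 1.68 and 1.69 TPM, against 0.322, 0.509 and 0.331 TPM in the wild type.

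**Figure D4:**
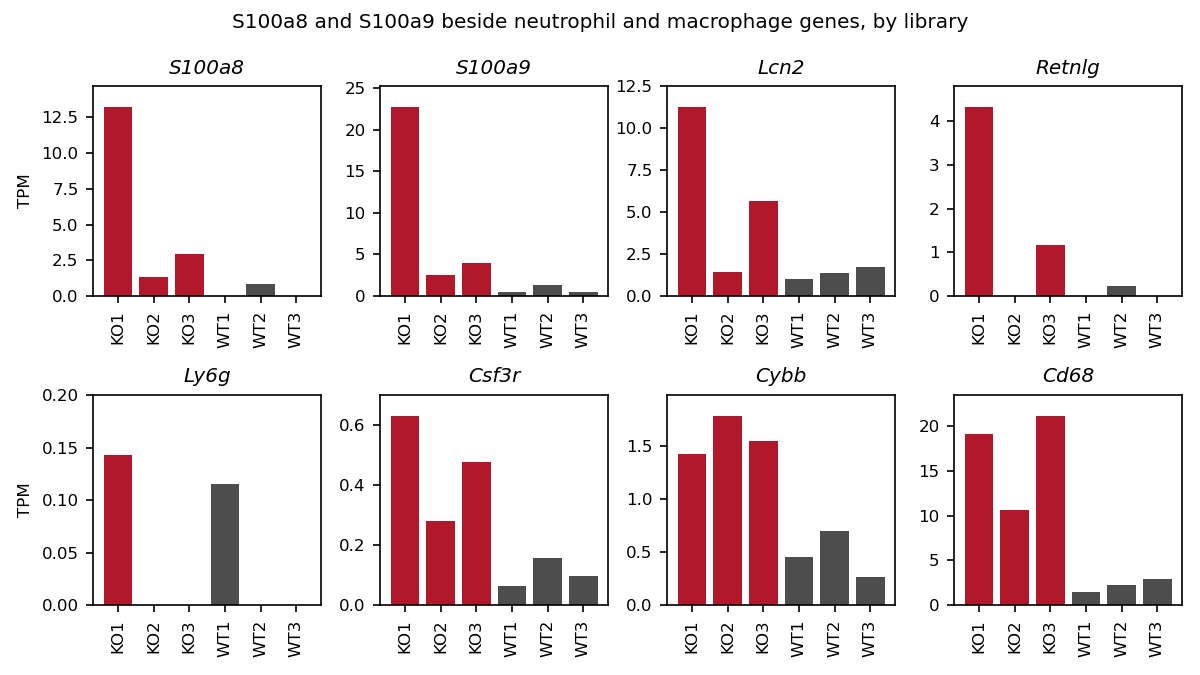
Level in TPM by library of S100a8, S100a9 and genes of neutrophils, macrophages and the NADPH oxidase, knockout libraries left of wild-type libraries. S100a8 and S100a9 peak in knockout library 1, at 13.2 and 22.7 TPM, and lie at or below 1.34 TPM in the wild-type libraries.

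In order of level the wild-type muscle held S100a1, then S100a6, then S100a11, S100a10 and S100a16, whose ranges overlap, then S100a13 and S100a4, which also overlap, and at the bottom S100a9, S100a8 and S100a5, where each overlaps the next. In the knockout the order was S100a6, S100a1, S100a10, S100a11, S100a4, S100a16, S100a13, S100a5, S100a9 and S100a8. There the ranges of S100a10 and S100a11, of S100a11 and S100a4, of S100a13 and S100a5, of S100a5 and S100a9, and of S100a9 and S100a8 overlapped. Within single knockout libraries S100a11 and S100a4 changed order, with S100a4 higher in library 1 alone. The other overlapping neighbours kept the order given in every knockout library. Among the members above 10 TPM in every wild-type library S100a4 differed most in rank, at rank 748 in the knockout against 3597 in the wild type.

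The other 8 S100 genes listed in the files were under the filter of 1 TPM in 3 libraries and were not tested. S100a3, the gene before S100a4, was at 0.485, 0.586 and 1.29 TPM in the knockout, against 0, 0.0753 and 0 TPM in the wild type, without overlap. S100b, best known from Schwann cells and astrocytes, was at 0.395, 0.300 and 0.235 TPM in the knockout and 0.355, 0.297 and 0.363 TPM in the wild type, with overlap. S100a7a was at 0.656, 0.355 and 0.232 TPM in the knockout and 0.305, 1.01 and 1.91 TPM in the wild type. S100g, S100a2 and S100a14 were at or below 0.448 TPM throughout, and S100a7l2 and S100z were listed at 0 in every library.

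Along chromosome 3 the members form a block of 184.688 kb from S100a1 to S100a9, with 8 members among 13 genes listed in the files, and a second block of 44.156 kb with S100a11 (ENSMUSG00000027907) and S100a10 (ENSMUSG00000041959), 2824766 bases further on. In the first block all 8 tested genes were members. On the log2(TPM + 1) scale the fold change was smallest at its S100a1 end, highest at S100a5 and intermediate at S100a8 and S100a9. The places of the low genes depend on the pseudocount: S100a8 stood at 4.18 with 0.1, above S100a4 (2.88) and S100a6 (2.61), and at 0.88 with 5, below S100a16 (0.91). Of the 10 tested genes before S100a1, 4 were called higher and 0 lower, with a median log2 fold change of 0.31. Of the 10 tested genes after S100a10, 1 was called higher and 0 lower, with a median of 0.14. Across all tested genes 36.3% were called higher and 2.92% lower, with a median of 0.33. The 60 listed genes between the blocks held none that passed the filter, and 47 of them were at 0 in every library.

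**Figure D5:**
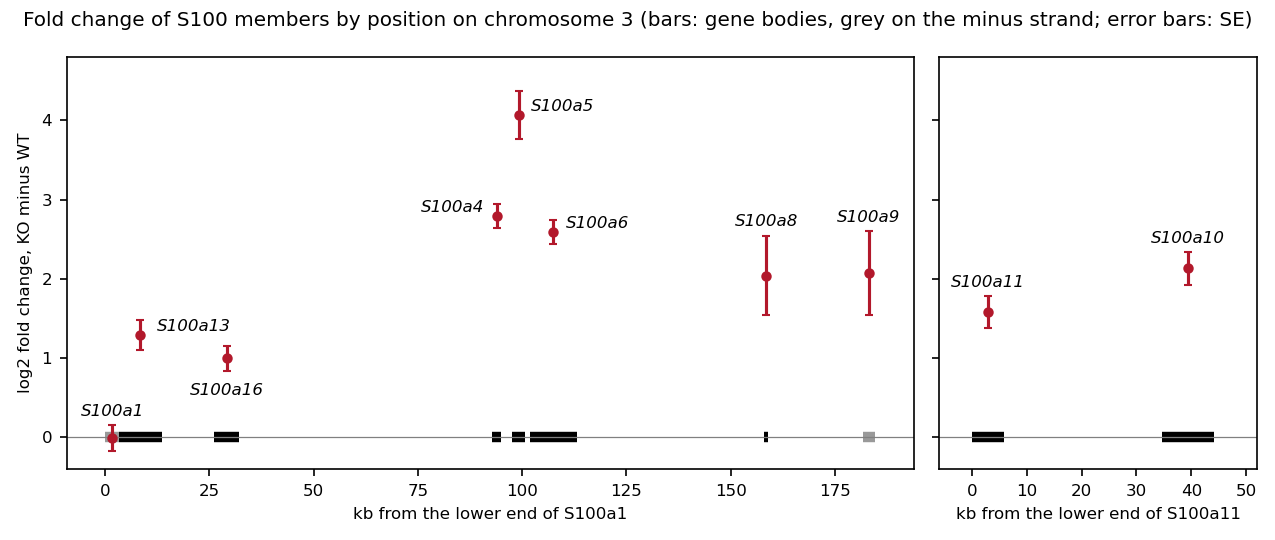
Log2 fold change with its SE for the 10 members, knockout over wild type on the log2(TPM + 1) scale, against position in kb from the lower end of S100a1 or of S100a11, with gene bodies as bars. The points run from -0.01 at S100a1 through 1.29 at S100a13 to 4.07 at S100a5, and lie at 1.58 and 2.13 in the second block.

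Receptors that take up signals from released S100 proteins were called higher in 4 of 7 tested genes, of 8 listed, and lower in 0, beside 36.3% and 2.92% of all tested genes. Mcam, an adhesion receptor bound by S100a8 and S100a9, was at 15.6, 17.2 and 15.2 TPM in the knockout and 6.70, 6.43 and 7.26 TPM in the wild type (log2 fold change 1.12, limma adjusted p = 0.000108). Cd14, a TLR4 co-receptor, averaged 1.55 ± 0.309 TPM in the knockout and 0.408 ± 0.166 TPM in the wild type (log2 fold change 0.86, limma adjusted p = 0.000928), and it was tested through the knockout libraries alone. Tlr4 and its partner Ly96 had log2 fold changes of 0.49 (limma adjusted p = 0.0341) and 0.48 (limma adjusted p = 0.0382), and neither was called after rescaling, where 2 receptors were higher and 2, Cd36 and Bsg, lower, beside 15.9% and 11.8% of all tested genes. Without knockout library 1, wild-type library 1 or wild-type library 2 the number called was 2. Ager, encoding RAGE, was at 0.210 to 0.247 TPM in the knockout and 0.109 to 0.226 TPM in the wild type and was not tested.

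Among the intracellular targets, those of S100a4 were called higher in 4 of 6 genes and lower in 0, before and after rescaling. Of all tested genes 36.3% were higher and 2.92% lower before rescaling, and 15.9% and 11.8% after it. Myh9, the heavy chain of nonmuscle myosin IIA, averaged 13.3 ± 0.456 TPM in the knockout and 5.93 ± 0.602 TPM in the wild type (log2 fold change 1.05, limma adjusted p = 0.000183). Ppfibp1, encoding the liprin bound by S100a4, had a log2 fold change of 1.25 (limma adjusted p = 0.0011), Trp53 one of 0.79 (limma adjusted p = 0.00178) and Myh10 one of 0.88 (limma adjusted p = 0.00714). Of the muscle fibre targets of S100a1, 1 of 9 tested genes was called, Capza1 with a log2 fold change of 0.50 (limma adjusted p = 0.0181), and 0 after rescaling. The number was 0 without knockout library 3, wild-type library 1 or wild-type library 2, and 2 without wild-type library 3. The ryanodine receptor gene Ryr1 averaged 156 ± 17.1 TPM in the knockout and 126 ± 3.35 TPM in the wild type and was not called (log2 fold change 0.30, limma adjusted p = 0.114). The list median was 0.26 for the S100a1 targets and 0.84 for the S100a4 targets, beside 0.33 for all tested genes.

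Of 19 other EF-hand calcium proteins, all tested, 12 were called higher and 0 lower, beside 36.3% and 2.92% of all tested genes. After rescaling 5 were higher and 1 lower, beside 15.9% and 11.8%. Without wild-type library 1 or wild-type library 2 the number called was 7. Efhd2 averaged 6.33 ± 0.698 TPM in the knockout and 2.04 ± 0.0912 TPM in the wild type (log2 fold change 1.26, limma adjusted p = 4.96e-05). Rcn3, of the endoplasmic reticulum, had a log2 fold change of 1.20 (limma adjusted p = 0.000325), the calpain gene Capn2 one of 1.29 (limma adjusted p = 0.000395) and Sri, the ryanodine receptor regulator sorcin, one of 1.06 (limma adjusted p = 0.000433). Their median log2 fold change was 0.53, beside 0.33 for all tested genes.

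Macrophages and fibroblasts are known sources of S100a4 and S100a6. Beside the marker counts below, 36.3% of all tested genes were called higher and 2.92% lower, and 15.9% and 11.8% after rescaling. All 10 macrophage markers were called higher before and after rescaling, 2 of them, Adgre1 and Itgam, having been tested through the knockout libraries alone. Their sum was 169 to 221 TPM in the knockout and 36.7 to 43.5 TPM in the wild type. C1qa was at 26.9, 22.0 and 35.2 TPM in the knockout, against 3.52, 3.73 and 3.78 TPM in the wild type (log2 fold change 2.61, limma adjusted p = 2.49e-06). All 8 fibro-adipogenic and fibroblast markers were called higher, 7 after rescaling, with Dpp4 again tested through the knockout libraries alone. They had sums of 806 to 840.5 TPM in the knockout and 266 to 292 TPM in the wild type. Pdgfra, the receptor that marks these cells, averaged 7.35 ± 0.622 TPM in the knockout and 2.95 ± 0.155 TPM in the wild type (log2 fold change 1.08, limma adjusted p = 0.000137). Their part in the levels of S100a4, S100a6, S100a10 and S100a11 was not tested.

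Among the remaining marker lists, all 4 tested of 6 mast cell genes (Cpa3 through the knockout libraries alone), 2 of 4 tendon genes and 2 of 3 satellite cell and myoblast genes were called higher, and 5 of 6 endothelial genes were higher and 1, Kdr, lower. No gene of the Schwann cell (3 tested), smooth muscle and pericyte (4), adipocyte (4), erythroid (5) or slow fibre (7) lists was called in limma, and of 7 fast fibre genes 1, Myh4, was higher. Over all tested genes the shares were 36.3% higher and 2.92% lower. Myod1, the myogenic regulator, was at 13.3, 8.36 and 11.6 TPM in the knockout and 2.04, 1.32 and 1.41 TPM in the wild type (log2 fold change 2.21, limma adjusted p = 8.45e-06). The tendon regulator Scx averaged 30 ± 10.6 TPM in the knockout and 3.67 ± 1.25 TPM in the wild type (log2 fold change 2.71, limma adjusted p = 2.5e-05). The part of these cells in the S100 values was not tested either.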

How the data were processed

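Per the labels' protocols, RNA was extracted with TRIzol and prepared with the NEBNext Ultra kit. The submitters' processing notes list GRCm38, mm10, kallisto 0.43.0 and STAR 2.5.3a but not what each was for. The deposited values were read as TPM because they are fractional and sum to nearly the same total in each library, and the unit is not given in the sources used here. TPM is a share, so when mitochondrial transcripts take less of a library every other gene gains.

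Genes missing from a file were set to 0. Values were analysed as log2(TPM + 1) with limma 3.58.1 (R 4.3.3), with an intensity trend and no covariate, for 11056 genes at 1 TPM or more in at least 3 of the 6 libraries. P-values were adjusted by the Benjamini-Hochberg method over all of them, with a threshold of 0.05. The fit was tested on simulated data. Alternatives were no trend, quantile normalization, trimmed-mean rescaling, rescaling to nuclear genes, no filter, a 10 TPM filter, pseudocounts of 0.1 and 5, leaving out each library in turn, a replicate block, and a minimum log2 fold change of 1. The positions are from GENCODE M21, in which 21817 (99.5%) of the gene identifiers were found, and the promoter windows from RefSeq.

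The members and all gene lists were chosen with earlier results of these data known. Named were all members and other S100 genes, up to 4 called genes of smallest adjusted p per list, the 5 genes most like S100a5, Cavin1 and genes between members. Cacybp, Dysf, Ryr1, Ager, Cd36, Bsg, Myh7, Retnlg, Ly6g, Elane, Mmp9, Adgre1, Itgam and Dpp4 were added after their values were seen. 1 gene that this rule names is not reported here. Marker lists were macrophage, neutrophil, mast cell, fibro-adipogenic, Schwann, endothelial, smooth muscle, adipocyte, tendon, erythroid, satellite cell and fibre genes.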

Additional observations from a re-analysis of the deposited data

How the results depend on the processing

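The number of S100 members called was 9 in the analysis as reported and between 6 and 9 in the alternatives. It was 7 with quantile normalization and 7 without a filter, S100a8 and S100a9 being lost both times, 6 with the 10 TPM filter, which S100a5, S100a8 and S100a9 did not meet, and 8 with the added log2 fold change of at least 1, which S100a16 missed. S100a1 turned sign without knockout replicate 3 (0.03), wild-type replicate 1 (0.06) or wild-type replicate 3 (0.07), lay between -0.16 and 0.071 with 1 library left out, and was called in none. Leaving out each library gave 9 members called every time.

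Genes called in all numbered 4339, and 2823 with quantile normalization, 1839 with the 10 TPM filter, 912 with the added fold threshold and 2783 to 4912 with 1 library left out. Those higher numbered 4016, and 1373 with quantile normalization, 1762 with trimmed-mean rescaling, 2675 on the nuclear scale, 1616 with the 10 TPM filter, 861 with the fold threshold and 2521 to 4561 with 1 library left out. Those lower numbered 323, and 1450, 1307 and 758 on the quantile, trimmed-mean and nuclear scales, 51 with the fold threshold and 231 to 351 with 1 library left out. The share of calls that were higher was 92.6%, and 48.6%, 57.4% and 77.9% on the quantile, trimmed-mean and nuclear scales. The 8 partner and target lists, whose numbers tested are given above, had 40 genes called, beside 39.2% of all 11056 tested genes. They had 26 with quantile normalization and 16 with the fold threshold, where 2823 and 912 of all tested genes were called. With 1 library left out they had 30 to 43, beside 2783 to 4912 of all tested genes. Among the fits with 1 library left out the fewest calls came without wild-type replicate 2. For 35 genes named beside the members the call was followed through the alternatives. Of the 32 called among them, 19 kept the call in each alternative that tested them. Some other called genes named here, such as Myh4 and Kdr, were not in that count. Under trimmed-mean rescaling Cacybp (-0.088), Dysf (-0.021) and Ryr1 (-0.058) turned sign, as did Cacybp with quantile normalization (-0.063), uncalled throughout.

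With replicate number as a block 4373 genes were called, 9 of them members. Same-numbered libraries deviated with correlations of 0.03, -0.01 and 0.04, and not every library correlated best with its own number, so the numbers serve as names only. TPM keeps no counts, so no limit from depth can be given. The cause of these shifts was not tested.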
